A study of Mus musculus with 30 samples.

Results

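J-domain proteins, HSP90 with its cochaperones, and the chaperonins were followed in mouse gastrocnemius muscle after long-term exposure to a shifting light schedule. Members were matched by gene symbol, from a list drawn up with earlier results of these data known. The list held all symbols that begin with Dnaja, Dnajb or Dnajc and a number, and the subunits of the CCT chaperonin (Tcp1 and the Cct genes). It also held the HSP90 genes Hsp90aa1, Hsp90ab1 and Trap1, and the mitochondrial chaperonin genes Hspd1 and Hspe1. The cochaperone genes were Stip1, Ahsa1, Ahsa2, Chordc1, Fkbp4, Cdc37 and St13. Of the 56951 gene symbols in the tables, 71 matched, and 57 of these were among the 12030 genes that passed the filter on low genes (an average above 20 reads and above 0.5 FPKM over all libraries). FPKM is the number of fragments on a gene's exons, scaled to the length of those exons and to the size of the library, so levels of different genes are compared on that scale.

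Wild-type male C57BL/6J mice, housed singly with a running wheel, were kept for 64 weeks either under a fixed light-dark cycle with light from 8:00 to 20:00 (the LD group, 14 mice) or under a cycle advanced by 8 h every 4 days (the ADV group, 16 mice). All mice were young adults when the schedules began and old at their end, and had lived in constant darkness for some weeks before, so the comparison is between old mice of both groups. Poly(A)-enriched RNA of the gastrocnemius was sequenced with a stranded kit, 1 library per mouse, and the mice are named here by the group and number of their labels. The labels name no batch.

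Chaperones of these families work as a relay. J-domain proteins bind unfolded clients and start the ATPase of HSP70, HSP90 takes over clients such as kinases and steroid receptors with the help of cochaperones, and the chaperonins enclose clients in a ring, CCT in the cytosol for actin, tubulin and other proteins, and HSP60 (Hspd1) with its lid HSP10 (Hspe1) in the mitochondrial matrix. Some of the genes are transcribed at all times, and others, such as Hsp90aa1 and Dnajb1, are classical targets of heat shock factor 1 (HSF1), which binds inverted repeats of GAA, the heat shock element. Skeletal muscle fibers carry a heavy folding load of actin, myosin and mitochondrial proteins, and their chaperone genes are known to respond to contraction, heat and age.

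Each LD library held between 19015401 and 28512674 reads on exons, and each ADV library between 18875468.5 and 25699603.5, where a mate counts as 0.5. Markers of fast fibers, the main fibers of this muscle, were abundant and overlapped between the groups, with summed levels of 71433 to 98751 FPKM in LD and 70942 to 101140 FPKM in ADV and 0 of 9 genes past the test. Among other cell type markers that passed the test, 2 of 5 endothelial markers were higher in ADV (summed level 48.1 to 68.4 FPKM in LD, 55.5 to 72.7 FPKM in ADV). Of smooth muscle markers 1 of 4 was higher (28.5 to 54.8 FPKM in LD, 32.3 to 66.8 FPKM in ADV), and of fibroblast markers 1 of 5 was lower (256 to 334 FPKM in LD, 220 to 348 FPKM in ADV). Larger shifts did not pass. The log2 fold change (ADV over LD) was above 0 for all 4 Schwann cell markers tested (median 0.46), all 5 of slow fibers (0.46), all 5 of adipocytes (0.52) and all 4 of red blood cells (0.18). Of 3 leukocyte markers, 1 was above 0 and 2 were below. Slow fiber markers summed to 27.6 to 714 FPKM in LD and 154 to 1430 FPKM in ADV. Adipocyte markers summed to 27.5 to 158 FPKM in LD and 18.4 to 282 FPKM in ADV. The median of that sum was lower in ADV (84.0 FPKM) than in LD (102 FPKM), unlike the fold changes. The part of all these cells in the member values was not tested. In whole muscle, fewer cells of a type and less RNA per cell cannot be told apart. The share of fragments on exons was 91.17 ± 0.12% in LD and 91.53 ± 0.37% (mean ± SD) in ADV, with ADV mouse 34 at 92.67% and ADV mouse 25 at 92.04%.

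Dnajb1, Dnajb4, Dnaja4 and Hsp90aa1 were higher in the ADV group by the largest factors, while Hsp90ab1, all CCT subunits and most other members did not pass the test. By edgeR's quasi-likelihood test, 10 of the 57 members (17.5%) passed a false discovery rate (FDR, Benjamini-Hochberg over all 12030 genes) of 0.05, against a background of 10.8% of all genes tested. Of these, 8 were higher in ADV (background 5.61%) and 2 were lower (background 5.2%). With a fold change over 1.3 as well, the threshold for a differentially expressed gene (DEG), 4 members (7.02%) were called, against 2.09% of all genes: Dnajb1, Dnajb4, Dnaja4 and Hsp90aa1. All 4 were higher in ADV (background 1.45%), and no member was called lower (background 0.648%). The median log2 fold change (ADV over LD) over the 57 members was 0.04, against 0.00 over all genes tested, with 39 members above and 18 below 0. Of all genes tested, 6111 were above and 5919 below 0. An unadjusted p under 0.05 by edgeR was reached by 17 of 57 members and by 3624 of 12030 genes. DESeq2 gave 12 members past the FDR, 10 higher and 2 lower, and 1679 of all genes. The members past it by DESeq2 but not by edgeR were Dnajb2 and Dnajc19.

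**Figure D1:**
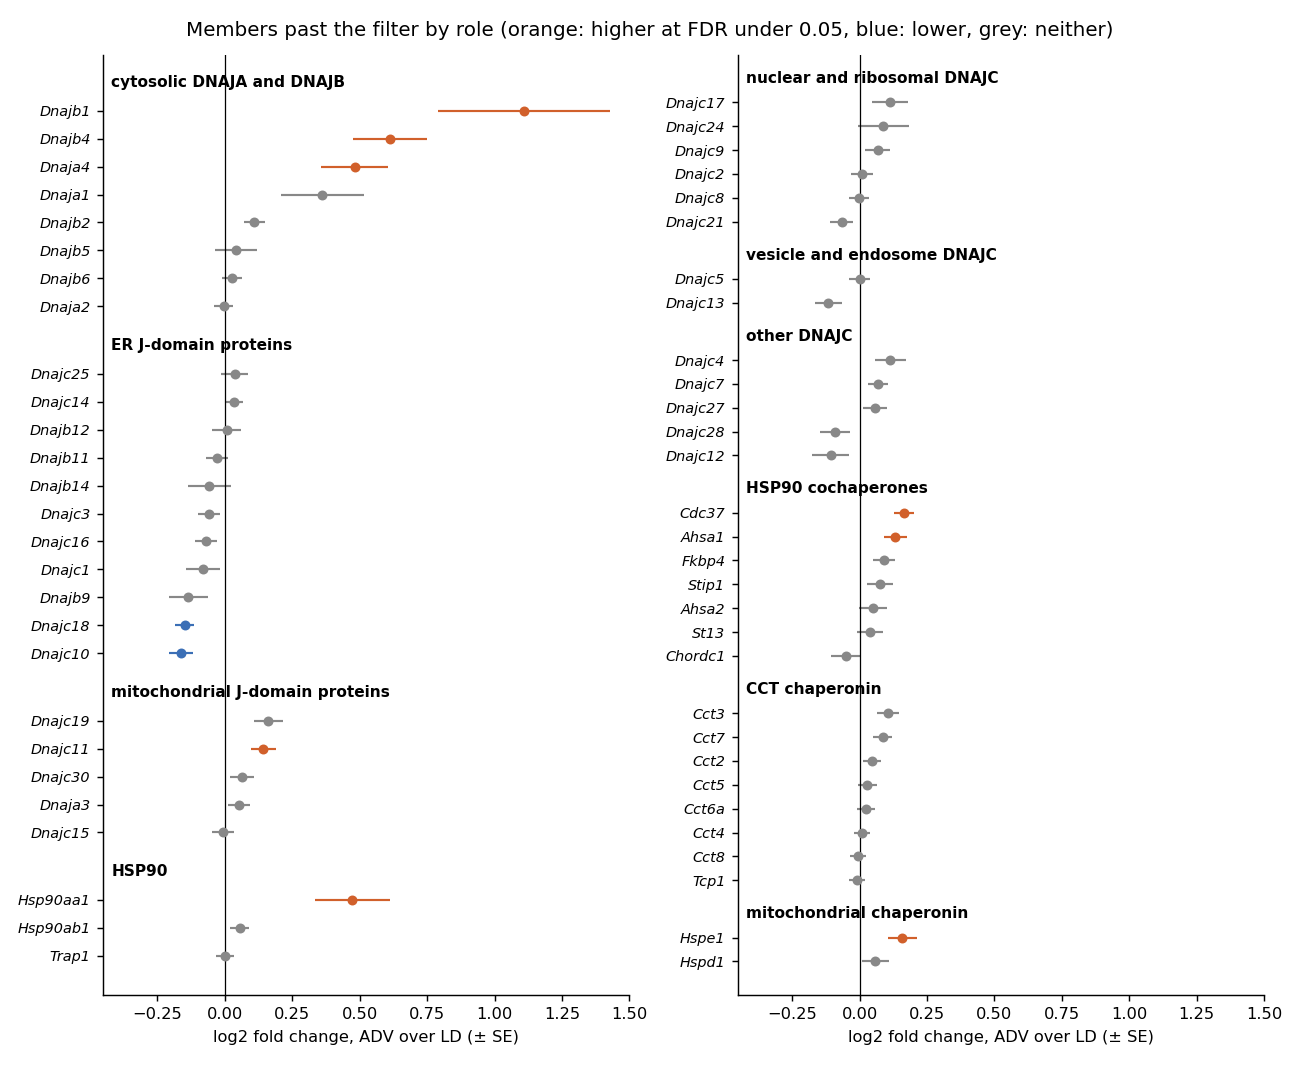
Log2 fold change of each of the 57 members (x axis, ADV over LD, edgeR; bars are SE), grouped by role. Dnajb1 (1.11), Dnajb4 (0.61), Dnaja4 (0.48) and Hsp90aa1 (0.47) lie apart to the right, together with Dnaja1 (0.36), which did not pass the test, and the other members lie between -0.16 and 0.16.

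The group with the largest differences was that of the cytosolic J-domain proteins of the DNAJA and DNAJB classes, the main partners of HSP70 in the cytosol. Of 12 listed genes 8 were tested, and 3 of the 8 were higher in ADV and 0 lower (background 5.61% and 5.2%), with a median log2 fold change of 0.24. Those 3 were Dnajb1, Dnajb4 and Dnaja4, and the others were Dnaja1, Dnaja2, Dnajb2, Dnajb5 and Dnajb6. The remaining 4 (Dnajb3, Dnajb7, Dnajb8 and Dnajb13) fell under the filter.

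Dnajb1 encodes HSP40, the J-domain protein that is induced together with HSP70 in the heat shock response. It lies on chromosome 8 (GRCm39, chr8:84334822-84339282, plus strand). Its level ran from 1.38 to 3.06 FPKM in the LD mice (median 1.95) and from 1.68 to 22.1 FPKM in the ADV mice (median 2.57). The groups overlapped, with 7 of 16 ADV mice above the highest LD mouse, and ADV mouse 25 stood far above the next ADV mouse at 6.44 FPKM. The log2 fold change was 1.11 ± 0.32 (SE, edgeR FDR = 0.0252). Without ADV mouse 25 it was 0.63 (FDR = 0.0474), and limma on log2(FPKM + 0.1) gave 0.71 with an FDR of 0.0655, over the threshold.

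Dnajb4, a close relative of Dnajb1 whose loss is known to cause a muscle disease in humans, lies on chromosome 3 (GRCm39, chr3:151889619-151915720, minus strand). Levels were 13.2 to 27.7 FPKM in LD (median 20.9) and 20.0 to 56.6 FPKM in ADV (median 30.3). In ADV, 11 of 16 mice were above the highest LD mouse, and none was below the lowest. The log2 fold change of 0.61 ± 0.14 (SE, edgeR FDR = 0.00678) held in all 30 fits that left out 1 library each, with an FDR of at most 0.0130.

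Dnaja4, a DNAJA protein that is high in heart and skeletal muscle, lies on chromosome 9 (GRCm39, chr9:54606843-54623599, plus strand). It ranged from 20.6 to 45.1 FPKM in LD (median 33.6) and from 29.1 to 76.7 FPKM in ADV (median 44.0). The highest ADV values came from mice 25, 24 and 33, and 15 of 16 ADV mice were above the LD median. Its log2 fold change was 0.48 ± 0.12 (SE, edgeR FDR = 0.0133). About 52.6% of the exon bases of Dnaja4 lie opposite exons of Skic8, and whether the counting used the strand is not given in the sources used here, and without strand the reads of the pair cannot be told apart. The same holds for Dnajb4, with 13.7% of its exon bases opposite Fubp1 and a second gene.

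The other cytosolic members showed how uneven the group was. Dnaja1, also heat-inducible, ranged from 2.06 to 5.12 FPKM in LD and from 2.28 to 7.03 FPKM in ADV, with a log2 fold change of 0.36 ± 0.15 that did not pass (edgeR FDR = 0.114). Exons of Smu1 lie opposite 89.4% of its exon bases. Dnaja2, the constitutive DNAJA protein, was the second most abundant of the group at 58.7 ± 3.69 FPKM (mean ± SD) in LD and 59.2 ± 2.69 FPKM in ADV and did not pass. The most abundant was Dnajb5, at 48.1 to 73.3 FPKM in LD and 48.6 to 81.5 FPKM in ADV. Dnajb5 differed by 0.04 ± 0.08 and Dnajb6, which keeps polyglutamine proteins soluble and is mutated in a limb-girdle muscular dystrophy, by 0.03 ± 0.04 on the log2 scale. Dnajb2, which also carries ubiquitin-binding motifs, had 9 of 16 ADV mice above all LD mice and a log2 fold change of 0.11 ± 0.04, just outside the threshold (edgeR FDR = 0.0593). Dnajb2 passed with DESeq2 (FDR = 0.0436), which was 1 of 13 alternatives other than leaving out a library.

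**Figure D2:**
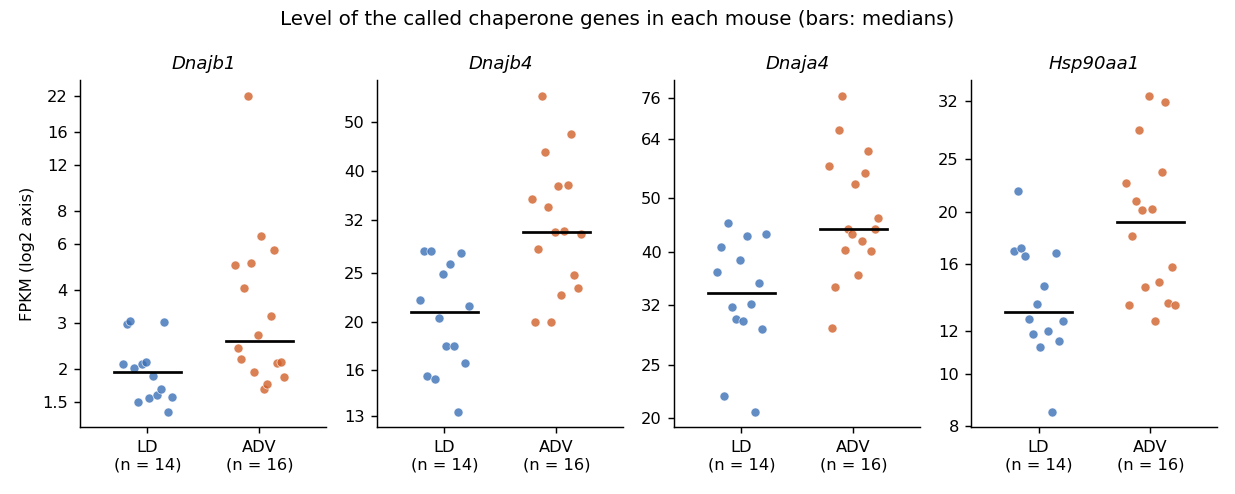
FPKM (log2 axis) of Dnajb1, Dnajb4, Dnaja4 and Hsp90aa1 in each LD mouse (14 points) and each ADV mouse (16 points); bars are group medians. In all 4 panels the ADV mice spread upward from within the LD range, and the highest Dnajb1 value, 22.1 FPKM, is that of ADV mouse 25.

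Of the 3 HSP90 genes, the inducible cytosolic form passed the test and the other two did not. Hsp90aa1 (GRCm39, chr12:110657039-110662829, minus strand) ran from 8.52 to 21.9 FPKM in LD (median 13.1) and from 12.6 to 32.8 FPKM in ADV (median 19.1). Of the ADV mice, 15 of 16 were above the LD median and 5 were above the highest LD mouse, with mice 28, 33 and 25 highest. The log2 fold change was 0.47 ± 0.14 (SE, edgeR FDR = 0.0291). It lost the threshold in 2 of 30 fits that left out 1 library, with the largest FDR, 0.0528, without ADV mouse 25.

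Hsp90ab1, the constitutive cytosolic form, was the most abundant member of all, at 418 to 500 FPKM in LD (median 445) and 425 to 522 FPKM in ADV (median 469). Its log2 fold change was 0.06 ± 0.04 (edgeR FDR = 0.297), and 1 ADV mouse was above the LD range. The mean log2 ratio of Hsp90aa1 to Hsp90ab1 within a library does not depend on how libraries are scaled. Taken on counts that were not scaled to transcript length, it was -4.64 ± 0.32 (SD) in LD and -4.25 ± 0.43 in ADV. The means differed by 0.39 ± 0.14 (SE, two-sided permutation test with 100000 resamples, p = 0.0265 adjusted over 8 ratios), and 13 of 16 ADV mice were above the LD median. Hsp90aa1 was already called in these same libraries, so its ratio adds no separate support. Trap1, the HSP90 of mitochondria, was at 69.7 ± 3.12 FPKM in LD and 70.5 ± 3.70 FPKM in ADV, a log2 difference of 0.00 ± 0.03.

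HSP90 cochaperones moved little, and 2 of 7 rose (background 5.61%). Cdc37, which brings kinases to HSP90, ran from 9.23 to 10.8 FPKM in LD (median 10.2) and from 10.4 to 13.9 FPKM in ADV (median 11.1). All 16 ADV mice were above the LD median and 12 were above the highest LD mouse, more than for any of the 4 DEGs, and the log2 fold change was 0.16 ± 0.04 (edgeR FDR = 0.00665). Ahsa1, which speeds the ATPase of HSP90 and was the most abundant cochaperone, ran from 46.7 to 58.7 FPKM in LD (median 52.4) and from 52.9 to 71.3 FPKM in ADV (median 56.1). All 16 ADV mice were above its LD median, with a log2 fold change of 0.13 ± 0.04 (edgeR FDR = 0.0404) that passed in 16 of the 30 fits with a library left out and missed in 14.

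The other 5 cochaperones did not pass. Fkbp4, the immunophilin of steroid receptor complexes, differed by 0.09 ± 0.04 (log2, SE, FDR = 0.124), Stip1, the adaptor between HSP70 and HSP90, by 0.08 ± 0.05 (FDR = 0.276), St13, an HSP70-interacting partner of that adaptor, by 0.04 ± 0.05, and Ahsa2, a relative of Ahsa1, by 0.05 ± 0.05, all by edgeR. Exons of other genes lie opposite 88.2% of the exon bases of Ahsa2, so its reads, and its ratio to Ahsa1, carry the same limit on strand as Dnaja1. Chordc1, a cochaperone of HSP90 that responds to heat shock in mammals, was at -0.05 ± 0.06. ADV mouse 28, the highest for Hsp90aa1, was also the highest ADV mouse for Ahsa1 (71.3 FPKM), Ahsa2 (11.5 FPKM), Stip1 (61.6 FPKM) and Chordc1 (8.11 FPKM). The ratio of Stip1 to St13 differed by 0.03 (adjusted p = 0.617) and that of Ahsa2 to Ahsa1 by -0.09 (adjusted p = 0.0906) in the permutation test on log2 values.

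The CCT ring is built from 8 different subunits in equal number. Only the RNA of its subunits was measured, so the level of the ring itself was not tested. None of the 8 tested subunit genes passed the FDR by edgeR, DESeq2 or limma, and 2 had an unadjusted p under 0.05 by edgeR, Cct3 and Cct7. Over all genes tested, 10.8% passed by edgeR and 3624 of 12030 had such an unadjusted p. With 8 genes, these counts do not set the CCT subunits apart from that background. Their log2 fold changes ran from -0.01 (Tcp1, Cct8) to 0.11 (Cct3, ± 0.04, edgeR FDR = 0.0769), with a median of 0.03. Tcp1, the founding subunit, ran from 52.3 to 58.0 FPKM in LD (median 56.0) and from 52.7 to 60.3 FPKM in ADV (median 55.8), so the groups lay over each other. Cct5, the most abundant subunit over all mice, ran from 51.1 to 60.9 FPKM in LD and from 49.6 to 65.1 FPKM in ADV.

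Between subunits the order of mean FPKM in LD was Tcp1 (55.8), Cct5 (55.2), Cct2 (45.3), Cct7 (40.4), Cct8 (38.5), Cct6a (33.9), Cct3 (32.7) and Cct4 (31.7). Exons of other genes lie opposite 40.7% of the exon bases of Tcp1, 25.2% of Cct7, 17.5% of Cct6a and 14.5% of Cct8, so their place in the order carries the limit on strand. Neighbours in that order often lay within each other's spread, Tcp1 and Cct5 among them, and in ADV those 2 had the opposite order, as had Cct6a (34.9) and Cct3 (35.6). Summed over the 8 subunits the level was 334 ± 12.5 FPKM (SD) in LD and 345 ± 14.7 FPKM in ADV. Cct6b, the testis form of the sixth subunit, was under the filter.

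**Figure D3:**
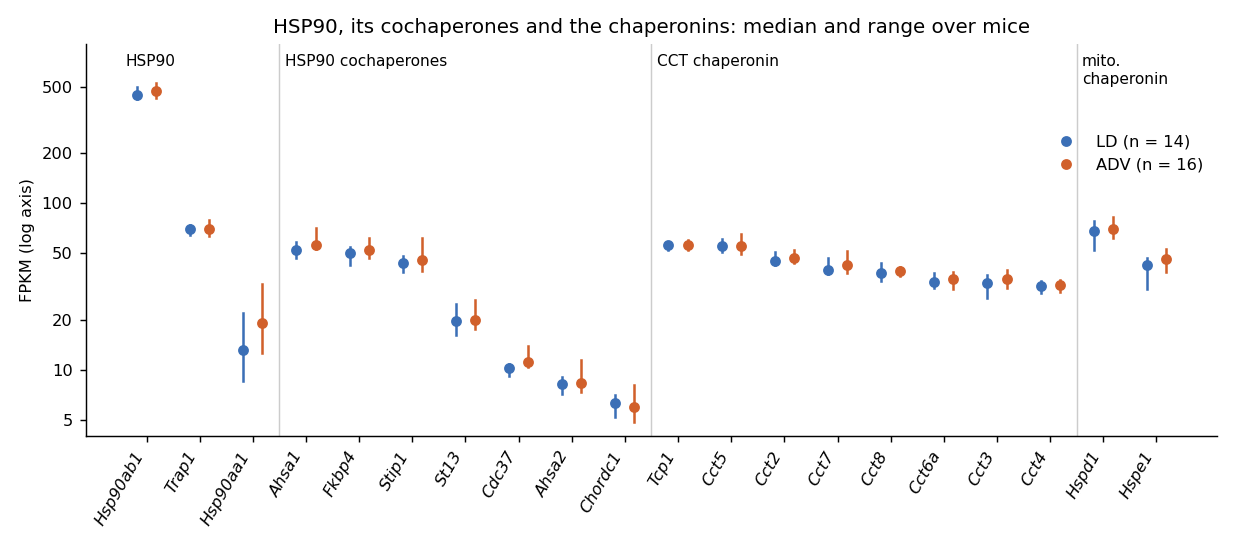
FPKM (log axis) of HSP90, HSP90 cochaperones, CCT subunits and the mitochondrial chaperonin in LD (14 mice) and ADV (16 mice); points are medians and lines run from the lowest to the highest mouse. Hsp90ab1 stands above all others with medians of 445 and 469, the ranges of each CCT subunit overlap between the groups, and Hsp90aa1 shows the widest upward shift.

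For the mitochondrial chaperonin the RNA ratio of barrel to lid differed between the groups. Hspe1, the HSP10 lid, ran from 30.4 to 46.8 FPKM in LD (median 42.3) and from 38.5 to 53.0 FPKM in ADV (median 46.1). Its log2 fold change of 0.16 ± 0.05 was at the threshold (edgeR FDR = 0.0495) and missed it in 23 of 30 fits with a library left out. Hspd1, the HSP60 barrel, ran from 52.1 to 78.3 FPKM in LD (median 68.2) and from 62.1 to 82.8 FPKM in ADV (median 69.4), with a log2 fold change of 0.06 ± 0.05 (FDR = 0.453). The log2 ratio of Hspd1 to Hspe1 was 2.35 ± 0.08 (SD) in LD and 2.25 ± 0.11 in ADV, lower by 0.10 ± 0.04 (SE, permutation test, adjusted p = 0.0265), with 2 of 16 ADV mice above the LD median. This ratio is of counts not scaled to transcript length (2400 bases for Hspd1, 767 for Hspe1), so its size cannot be read against the FPKM values. Hspe1 was already called, at the threshold, in these same libraries, while Hspd1 did not pass. The ratio therefore adds no separate support to that call. Exons of Hspd1 lie opposite 14.5% of the exon bases of Hspe1.

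J-domain proteins of the mitochondria gave 1 of 5 past the test (background 10.8%). Dnajc11, a J-domain protein that associates with the complexes that shape cristae, ran from 11.7 to 15.2 FPKM in LD (median 13.6) and from 13.5 to 18.6 FPKM in ADV (median 14.6), with a log2 fold change of 0.14 ± 0.05 (edgeR FDR = 0.0397). Dnajc11 missed the threshold in 15 of 30 fits with a library left out, and with the GC content trend removed its value was 0.09 (edgeR FDR = 0.137). Dnajc19, part of the import motor of the inner membrane and the most abundant of the group, ran from 35.9 to 46.4 FPKM in LD (median 42.4) and from 38.7 to 62.3 FPKM in ADV (median 45.6), with 0.16 ± 0.06 just outside the threshold (FDR = 0.0527). Dnajc19 passed with DESeq2 (FDR = 0.0412), and in 6 of 13 alternatives other than leaving out a library. For both genes ADV mouse 34, which had the highest share of fragments on exons, was the highest. Dnaja3, the J-domain partner of mitochondrial HSP70, Dnajc30 (0.06 ± 0.04 on the log2 scale) and Dnajc15 did not pass.

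J-domain proteins of the endoplasmic reticulum (ER) gave lower members and no higher one. Of 11 tested, 2 fell and 0 rose (background 5.2% lower and 5.61% higher). A log2 fold change below 0 was found for 8 of the 11, against 5919 of all 12030 genes. The median was -0.06 against 0.00 for all genes, and the group was not tested as a set. Dnajc10, an ER reductase that opens disulfide bonds of misfolded proteins, ran from 6.12 to 7.77 FPKM in LD (median 6.99) and from 5.49 to 7.18 FPKM in ADV (median 6.41), and 5 of 16 ADV mice were below the lowest LD mouse. Its log2 fold change was -0.16 ± 0.04 (edgeR FDR = 0.0181). Dnajc18, a J-domain protein anchored in the ER membrane, ran from 5.78 to 6.96 FPKM in LD (median 6.54) and from 5.14 to 6.74 FPKM in ADV (median 6.00), with 14 of 16 ADV mice below the LD median. It fell by 0.15 ± 0.03 on the log2 scale (edgeR FDR = 0.00900).

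The other ER members were not separated from LD. Dnajb9, a repressor of the ER stress sensor IRE1, had the next lowest log2 fold change, -0.13 ± 0.07 (FDR = 0.201), and Dnajb11, the soluble J-domain partner of BiP, was at -0.03 ± 0.04 by edgeR. Dnajc3, which is induced in the unfolded protein response, did not pass. Dnajb12, the most abundant of the group, ran from 17.7 to 25.2 FPKM in LD (median 20.6) and from 18.6 to 25.0 FPKM in ADV (median 20.7), with 0.01 ± 0.05. Once the trend of each library with the GC content of genes was removed, Dnajc10 was at -0.09 (FDR = 0.128) and no longer passed, while Dnajc18 did (-0.12, FDR = 0.0407).

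The remaining J-domain genes gave no call. None of the 6 nuclear and ribosomal, the 2 vesicle and endosome or the 5 other DNAJC genes tested passed by edgeR, DESeq2 or limma, and 1 of these 13 had an unadjusted p under 0.05 by edgeR, Dnajc13 of the endosome (-0.12 ± 0.05, FDR = 0.123). The background by edgeR was 10.8% of genes past the FDR, and 3624 of 12030 with an unadjusted p under 0.05. Dnajc21, a ribosome assembly factor and the most abundant of the nuclear group, was at 33.8 ± 1.98 FPKM (SD) in LD and 32.6 ± 2.48 FPKM in ADV. Dnajc5, the cysteine string protein that protects synaptic vesicles, was at 9.02 ± 0.63 FPKM in LD and 9.13 ± 0.76 FPKM in ADV. Dnajc7, which binds both HSP70 and HSP90, was at 31.9 ± 1.92 FPKM in LD and 33.8 ± 2.42 FPKM in ADV (log2 fold change 0.07 ± 0.04, edgeR FDR = 0.200). Besides the genes named above, Dnajc5b, Dnajc5g, Dnajc6 and Dnajc22 were under the filter, as were 5 symbols of pseudogenes or genes outside the role lists (Cct3-ps1, Cct8l1, Dnaja1-ps, Dnajb6-ps and Dnajc19-ps).

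High values of the 4 called genes fell on partly shared mice. ADV mice 21, 25, 32 and 33 were above the highest LD mouse for all 4 of Dnajb1, Dnajb4, Dnaja4 and Hsp90aa1. Mice 24 and 29 were above it for 3 of them, mice 26, 28 and 36 for 2, mice 23 and 31 for 1, and 5 ADV mice (22, 27, 30, 34 and 35) for none. ADV mouse 28 had the highest Hsp90aa1 level, 32.8 FPKM, with a Dnajb1 level of 2.72 FPKM inside the LD range.

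Hsp90aa1 was related to 8 other genes, Dnaja4 not among them, within each group (log2 CPM, counts scaled to the effective library size; 16 relations computed, p from 100000 permutations and adjusted over all 16). Dnaja1, Dnajb1, Dnajb4 and Hspa1b passed in both groups, whereas Hspe1, Chordc1 and Hsph1 passed in neither. Hsp90aa1 and Dnaja1 gave Pearson's r = 0.92 and Spearman's rho = 0.88 over the 14 LD mice (adjusted permutation p = 8e-05 and 0.000373) and r = 0.90 and rho = 0.86 over the 16 ADV mice (adjusted permutation p = 8e-05 and 0.000373). The unadjusted p of both r, 1e-05, is the smallest that these permutations can give. For Dnajb1 the r was 0.74 in LD and 0.71 in ADV (rho 0.69 and 0.79, adjusted permutation p of r 0.00520 and 0.00326). Without the 2 mice farthest from the median of Hsp90aa1 (LD 22 and 33, ADV 28 and 33), r was 0.87 and 0.89 for Dnaja1 and 0.77 and 0.88 for Dnajb1.

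For Dnajb4 the r of 0.67 in LD fell to 0.45 without those 2 mice, and that of 0.71 in ADV became 0.79 (rho 0.61 and 0.74, adjusted permutation p of r 0.0158 and 0.00530). Hspe1, the HSP10 gene, gave r = 0.49 in LD, which rested on 2 mice (0.03 without them), and 0.26 in ADV, with rho of 0.43 and 0.29 and adjusted permutation p of r of 0.0956 and 0.324. Stip1 gave 0.49 in LD and 0.67 in ADV (rho 0.56 and 0.61, adjusted permutation p of r 0.0956 and 0.00980), or 0.36 and 0.44 without the 2 mice, and Chordc1 gave 0.57 and 0.44 (rho 0.48 and 0.41, adjusted permutation p of r 0.0547 and 0.104), or 0.22 and 0.15. The libraries share their depth and composition across genes, and the part of this in the relations was not tested. Tissue was taken over several hours of the light phase. LD mice 21, 22, 23, 26 and 34 were the highest of LD for Hsp90aa1 and also for the clock gene score given below (-0.40 to 0.57). In ADV, mouse 21 had the lowest score (-0.58) with a high Hsp90aa1 level of 22.6 FPKM. The part of circadian phase in the relations was not tested.

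**Figure D4:**
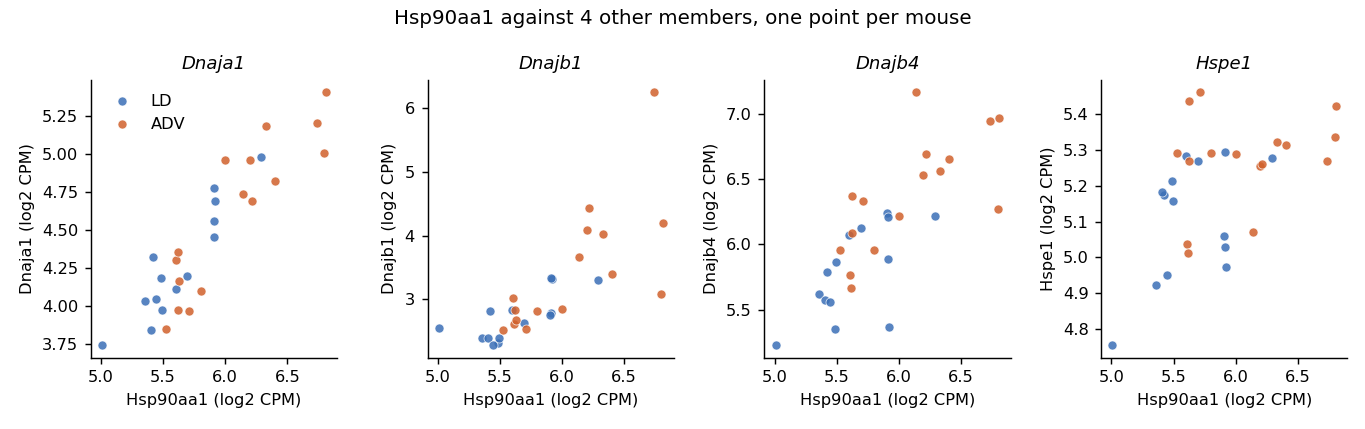
Log2 CPM of Dnaja1, Dnajb1, Dnajb4 and Hspe1 (y axes) against that of Hsp90aa1 (x axis), with 1 point per mouse (14 LD, 16 ADV). Dnaja1 follows Hsp90aa1 in both groups (r = 0.92 and 0.90), whereas Hspe1 gave r = 0.26 in ADV.

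Spread between mice was wider in ADV for most members. The SD of log2 CPM was larger in ADV than in LD for 45 of 57 members (78.9%), against 62.8% of all genes tested, with a median SD ratio of 1.29 against 1.12, given as a description. It was larger for all 7 HSP90 cochaperones and for Dnajb1, where the SD was 0.99 in ADV and 0.37 in LD. Both mitochondrial chaperonin genes went the other way, with an SD of 0.17 in LD and 0.10 in ADV for Hspd1. By FPKM, ADV mouse 34, with the highest share of fragments on exons, was the highest ADV mouse for 16 of the 57 members. Mouse 28 was so for 12 and mouse 31 for 9. The part of single libraries in the spread was not tested.

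Ratios of related genes set Dnaja4, Dnaja1 and Dnajb1 against relatives in the same library. Dnaja4 relative to Dnaja2 was higher in ADV by 0.47 ± 0.14 on the log2 scale (14 of 16 ADV mice above the LD median, permutation test, adjusted p = 0.0206), and Dnajb1 relative to Dnajb6 by 0.69 ± 0.28 (11 of 16, adjusted p = 0.0265). Dnaja4 and Dnajb1 were already called in these same libraries, while Dnaja2 and Dnajb6 hardly differed. Both ratios therefore restate those calls and add no separate support. Dnaja1 relative to Dnaja2 differed by 0.33 ± 0.17 (12 of 16, adjusted p = 0.0906) and Dnajb1 relative to Dnajb4 by 0.13 ± 0.21 (7 of 16, adjusted p = 0.617), and neither pair passed. Dnajb4 was itself called higher in ADV, so it is no unchanged reference for Dnajb1.

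Partner genes that are no members were read from the same fit: 58 of 59 listed were tested, and 5 rose and 2 fell. These 7 are 12.1% of those tested, near the 10.8% of all genes. In the HSP70 and HSP110 list 3 of 15 rose and 1 fell (background 5.61% and 5.2%). Hspa1b, an inducible HSP70, ran from 0.49 to 3.18 FPKM in LD (median 1.06) and from 1.09 to 48.8 FPKM in ADV (median 3.44), a log2 fold change of 2.67 ± 0.51 (edgeR FDR = 0.00221), and its neighbour Hspa1a, nearly identical in sequence so that reads may be shared between them, gave 2.41 ± 0.45 (FDR = 0.00165). Both were highest in ADV mouse 25, as Dnajb1 was, and Hspa1b followed Hsp90aa1 with r = 0.83 in LD and 0.84 in ADV (rho 0.81 and 0.85, adjusted permutation p of r 0.00076 and 0.000267), or 0.79 and 0.94 without the 2 farthest mice. Hspa8, the constitutive HSP70, went from 341 ± 39.3 to 421 ± 67.1 FPKM (log2 fold change 0.29 ± 0.07, FDR = 0.0103).

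Of the other lists, Bag3, a cochaperone of HSP70 in the disposal of damaged sarcomere proteins, rose by 0.38 ± 0.08 (edgeR FDR = 0.00337), and Clpp, a mitochondrial protease, by 0.19 ± 0.06 (FDR = 0.0411). Hspa13, an HSP70 relative of the ER, had the largest fall, -0.26 ± 0.07 (FDR = 0.0207), and Sugt1, an HSP90 partner, fell by 0.15 on the log2 scale (FDR = 0.0212), all by edgeR. Hsf1, the factor itself, was at 18.6 ± 1.28 FPKM in LD and 19.8 ± 1.75 FPKM in ADV (0.07 ± 0.04, FDR = 0.261), and Hsph1, an HSP110, differed by 0.04 ± 0.07. None of the 9 prefoldin and CCT helper genes passed by edgeR, DESeq2 or limma, and 1 had an unadjusted p under 0.05 by edgeR. For all genes tested by edgeR those shares were 10.8% and 3624 of 12030. Hsph1 followed Hsp90aa1 with r = 0.43 in LD and 0.52 in ADV (rho 0.50 and 0.41, adjusted permutation p of r 0.134 and 0.0576), or 0.28 and 0.10 without the 2 farthest mice.

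The 250 bases before the start of each listed transcript were searched on both strands for exact heat shock elements, either 2 inverted units (TTCNNGAA or GAANNTTC) or 3, in which a further inverted unit follows after 2 free bases. Each 3-unit match holds overlapping 2-unit matches. Elements with a mismatch are missed by such a search. A 2-unit match was found for 10 of 57 members (17.5%), against 10.1% of 12028 windows of all genes tested, and a 3-unit match for 3 of 57 (5.26%), against 0.407%. Those 3 were Hspd1 and Hspe1, which lie head to head on chromosome 1 and share the same element, and Dnajb6. Among the members that passed the test 4 held a match, shown here as 30 bases of GRCm39 on the strand of the gene, in 5′ to 3′ direction, with the match in capitals, because they are the stretches that set these 4 apart from the other called members in this search:
Dnaja4, chr9:54606742-54606771, plus strand: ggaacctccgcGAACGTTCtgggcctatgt
Dnaja4, chr9:54606780-54606809, plus strand: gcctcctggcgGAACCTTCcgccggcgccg
Hspe1 and Hspd1, chr1:55127212-55127241, plus strand: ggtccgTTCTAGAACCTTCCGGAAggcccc
Cdc37, chr9:21061382-21061411, minus strand: tcggcgggaacTTCCAGAAggcctcaccac
Dnajc10, chr2:80145617-80145646, plus strand: aacaattttatTTCTAGAAaactttaatta

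The Dnaja4 matches begin 90 and 52 bases before its start, and that of Hspe1 begins 73 bases before. The shared element stands between a gene that passed the test, Hspe1, and another that did not, Hspd1, and Dnajc10, which holds a match, was lower in ADV. In Dnajb1, Dnajb4, Hsp90aa1 and Dnaja1 these letters were not in the window. The other members with a 2-unit match were Cct5, Fkbp4, Dnajc27 and Dnajc30. The start used is that of the listed transcript, and only 13 of the 57 have the same ends in the newer annotation, so a window can miss the start that muscle uses.

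**Figure D5:**
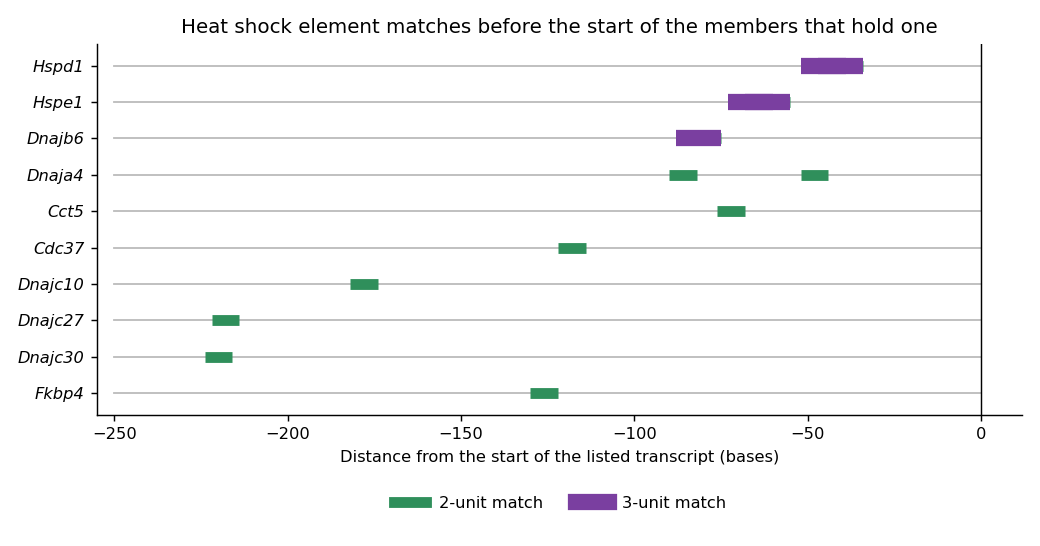
Position of exact heat shock element matches (x axis, bases from the start of the listed transcript) in the 10 members that hold any, in green for 2 units and violet for 3 units. The 3-unit matches of Hspd1, Hspe1 and Dnajb6 lie within 100 bases of the start.

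Clock genes differed between the groups as well: 7 of 8 genes that peak when Bmal1 is low were lower in ADV and 3 of 5 that peak with Bmal1 were higher. A clock gene score per library ran from -1.62 to 0.57 in LD (median -0.59) and from -0.58 to 1.19 in ADV (median 0.53), with 7 of 16 ADV mice above all LD mice. With this score in the edgeR fit 0 of 57 members and 0 of 12030 genes passed the FDR, 7 members and 1412 genes had an unadjusted p under 0.05, and the log2 fold changes of Dnajb1, Dnajb4, Dnaja4 and Hsp90aa1 were 1.04, 0.48, 0.49 and 0.26. Circadian phase and schedule cannot be told apart here. Immediate early genes, which respond within minutes to stress or handling, were higher in ADV for 6 of 9 tested, and their part in the member values was not tested.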

How the data were processed

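Gastrocnemius libraries of 14 LD and 16 ADV mice were grouped by their titles, and all sample columns were used. The authors mapped reads to GRCm39/mm39 (the submitters' processing notes name bcl2fastq, STAR 2.7.10a and HOMER 4.11), removed reads with a mapping quality under 10 and counted reads on exons of 57186 known canonical transcripts. The authors deposited estimated counts, in which each mate is worth 0.5 read (14.8% were not whole), and FPKM values made from the same counts. The strand option of the counting is not given in the sources used here.

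Counts were rounded, 1 row was kept per symbol (the longest expressed), and 12030 genes averaging above 20 reads and above 0.5 FPKM entered edgeR 4.0.16 (quasi-likelihood test, TMM, R 4.3.3) on group alone, with Benjamini-Hochberg adjustment and DEG limits of FDR 0.05 and fold 1.3. DESeq2 1.42.0, the study's tool, and limma 3.58.1 served as alternatives. Ratios and relations were taken on TMM log2 CPM (prior count 1) with two-sided permutation tests (scipy 1.17.1, Python 3.11.15). P-values of group differences weigh the difference in means against the variation between mice. Depth ran from 18875468.5 to 28512674 exon reads a library, and the precision of each fold change is given by its SE. The edgeR, DESeq2 and limma tests were checked on simulated data.

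The members, the role, partner and marker lists and the tests were chosen with earlier results of these data known. Genes named were Hsp90aa1, Hsp90ab1, Dnaja1, Dnajb1, Hspd1, Hspe1, Tcp1, all members past the FDR, the most abundant member of each role, those that complete a complex, and Hsf1, Hspa1a, Hspa1b, Hspa8, Hsph1 and the partners past the FDR; the others were named after their values were seen, to describe their role group. Alternatives were DESeq2, limma on log2(FPKM + 0.1) and log2(FPKM + 1), RLE size factors, library size alone, filters at a mean of 1 and 100 reads, a sum of all rows sharing a symbol, label numbers as blocks, removal of the GC content trend (a spline with 4 degrees of freedom fitted on genes averaging above 50 reads), the clock gene score as a covariate, and leaving out each library. Upstream windows were read from GRCm39 at the listed starts because the promoter table at hand was of another build, and exon overlaps from GENCODE vM39. Protein sequences were not analysed here, nor were fold changes of the study.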

Additional observations from a re-analysis of the deposited data

How the results depend on the processing

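Dnajb4 and Cdc37 stayed past the FDR under every alternative run except the clock gene score, and kept their direction there. Dnajb1, Dnaja4 and Hsp90aa1 kept their direction under all alternatives. All 3 lost the call under the clock gene score and in both fits with the replicate block. Dnajb1 (0.61, FDR = 0.0721) and Hsp90aa1 (0.42, FDR = 0.0738) lost it already in the edgeR fit of the same 28 libraries without the block, which lacks ADV mice 24 and 25, and Dnajb1 lost it in both limma fits. The share of all called genes that were higher in ADV was 51.9% in edgeR, 62.4% with library size alone and 65.7% with limma on log2(FPKM + 0.1), whereas 8 of 10 members past the FDR were higher with limma, as in edgeR. Counts are given here in the order all genes past the FDR, all DEGs, members past the FDR (higher, lower), member DEGs and partners past the FDR. With the label number as a replicate block (28 libraries, 14 pairs) they were 494, 137, 3 (2, 1), 1 and 4, against 616, 151, 5 (3, 2), 1 and 4 for the same libraries without it, 268, 84, 2 (2, 0), 1 and 3 with the block and the GC content trend removed, 618, 167, 7 (6, 1), 4 and 4 with the trend removed alone, and 0, 0, 0 (0, 0), 0 and 0 with the clock gene score. The labels do not say that equal numbers pair the mice. Correlations of deviations between mice of the same number ran from -0.26 to 0.43 (median 0.01). Of the LD mice, 3 of 14 were closest to their own number, which does not settle whether the numbers pair them. DESeq2 called 11 partners and limma 12, limma on log2(FPKM + 1) gave 124 DEGs, and the filter at 1 read left 5 members higher. Leaving out 1 library gave 835 to 1542 genes (835 without LD mouse 28), 6 to 11 members (6 without LD mouse 28 or ADV mouse 25) and 4 to 9 higher members (4 without either of those mice, 5 without LD mouse 23, 30, 32 or 33 or ADV mouse 28 or 34). The log2 ratio differences then ran from -0.11 to -0.0736 for Ahsa2/Ahsa1, 0.27 to 0.39 for Dnaja1/Dnaja2, -0.0238 to 0.20 for Dnajb1/Dnajb4 and 0.50 to 0.76 for Dnajb1/Dnajb6, the last missing the threshold in 4 of 30. On log2(FPKM + 0.1) the relations of Hsp90aa1 with Hspe1 (0.557), Stip1 (0.592) and Chordc1 (0.641) in LD and with Hsph1 (0.540) in ADV passed. Uncalled genes near 0 changed sign. With the GC content trend removed Cct8 was at 0.10, Tcp1 0.0145, Dnajb12 -0.0442, Trap1 -0.0300, Chordc1 0.15 and Dnajb5 -0.00982, and with the block added 0.0802, 0.00297, -0.0332, -0.0216, 0.14 and -0.0244. With the clock gene score Cct8 was at 0.00879, St13 -0.0291, Hspd1 -0.0385 and Hsph1 -0.00510. Under limma with 0.1 and 1 added Cct8 was at 0.0125 and 0.0122 and Tcp1 at 0.00446 and 0.00440, and with library size alone Cct8 was at 0.0044. Leaving out 1 library gave -0.0130 to 0.00713 for Cct8, -0.0121 to 0.0387 for Dnajb12, -0.0105 to 0.0132 for Trap1 and -0.00472 to 0.0582 for Hsph1. The cause of these changes was not tested.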
